A study of Mus musculus with 8 samples.

Results

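The extracellular matrix genes described here are Npnt, Egfl6, Nid1, Postn, Tnc, Fn1, Thbs1, Vcan, Has2 and Cd44, 10 non-collagen and non-laminin genes that make, form or bind the matrix around the bulge, the stem cell compartment of the hair follicle. They were taken by name, with earlier results of these data known. Every probe set that the platform annotation gives to 1 of them alone was used, which came to 30 of the 45037 probe sets tested and to 10 of 18193 genes. One further probe set, shared between Pald1 and Thbs1, was left out. RNA of sorted mouse skin cells was hybridised to 8 Affymetrix mouse arrays, and the series asked how raised Runx1, a transcription factor, alters hair follicle stem cells at rest.

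The 4 groups held 2 arrays each. Wild-type (WT) mice and mice with a Runx1 transgene (Runx1 iTG) were sampled on postnatal day 20, but replicate 2 of each transgenic group carries the label day 21. All mice, the WT mice included, ate food with 1 g of doxycycline per kg over 1 day, with repression of H2BGFP as the stated purpose. Whether H2BGFP was carried, which promoter drove the transgene and how doxycycline acted on it are not given in the sources used here. All sorted cells were positive for keratin 15-GFP and for α6-integrin. The CD34-positive cells were labelled bulge and the CD34-negative cells hair germ, the small cluster beneath the bulge from which a new hair grows.

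The follicle epithelium rests on a basement membrane, a thin sheet in which nidogen joins the laminin and collagen networks. Nephronectin and EGFL6 sit in this sheet and are bound by integrins, the cell's matrix receptors. Tenascin-C, periostin, fibronectin and thrombospondin-1 are glycoproteins that alter how firmly cells hold to the matrix. Hyaluronan, a long sugar polymer made at the cell surface, is held by the proteoglycan versican and by the receptor CD44.

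The transgene label was borne out by the targeted gene: the Runx1 probe set with the largest difference, picked after its values were seen, had a mean signal of 771.1 in WT and 16330 in transgenic CD34-positive cells (log2 difference 4.40, limma adjusted p = 0.000435), and 492.1 and 12490 in CD34-negative cells (4.67, adjusted p = 0.000251). The other Runx1 probe sets differed by -0.40 to 2.17 in CD34-positive and by -2.77 to 2.35 in CD34-negative cells. Cd34 signal lay between 4902 and 11210 in CD34-positive samples and between 1.52 and 53.2 in CD34-negative samples, as the sort sets it. The keratinocyte markers Krt5, Krt14, Krt15 and Itga6 were well above background on all 8 arrays. The 5 bulge markers, Cd34, Lhx2, Sox9, Nfatc1 and Tcf7l1, all passed as lower in CD34-negative cells in each genotype. Of all probe sets, 2.59% passed as lower in WT and 3.9% in Runx1 iTG. The label hair germ was not borne out by the 5 markers listed for it. All 5 hair germ markers, Cdh3, Lef1, Gli1, Lgr5 and Fgf18, were lower in CD34-negative cells in the average over both genotypes, by 0.98 to 4.68 on the log2 scale (adjusted p between 8.68e-06 and 0.0332). By genotype, 4 of the 5 passed in WT and 3 in Runx1 iTG, and Cdh3 in neither (limma adjusted p = 0.198 and 0.151). The summed signal of the 5 was 11310 to 17290 in CD34-positive and 1070 to 2070 in CD34-negative samples. Lgr5, at 7056 to 9956, made up most of it in CD34-positive samples. Whether these genes mark hair germ alone was not tested. The second population is therefore called CD34-negative throughout. Deposited median intensity ranged from 101.7 to 162 over the arrays, and 69% to 77% of probe sets lay above background. Replicate 1 of every group had low Xist and high Eif2s3y signal and replicate 2 the reverse, so sex and replicate number coincide and every group holds both.

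**Figure D1:**
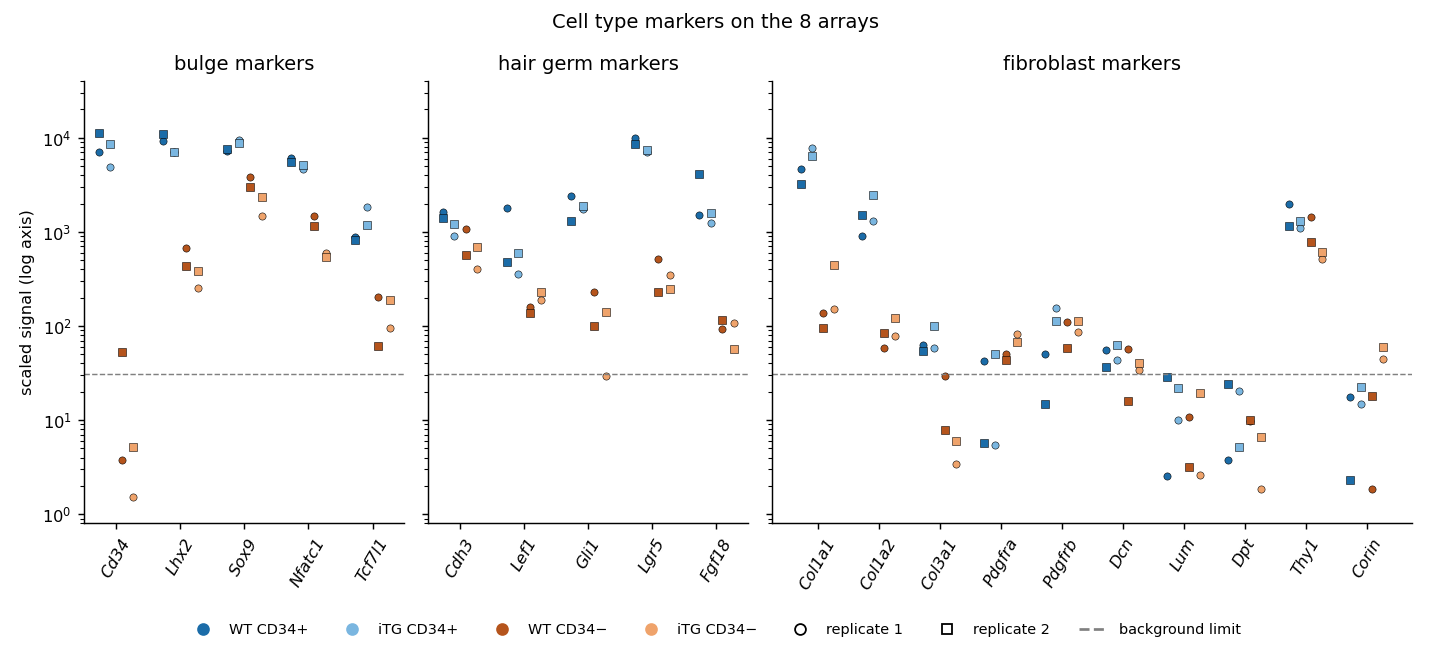
Scaled signal, on a log axis, of the bulge, hair germ and fibroblast markers; each point is 1 array, circles are replicate 1 and squares replicate 2, coloured by group, and the dashed line is the background limit of 31.1. The hair germ markers lie higher in CD34-positive (blue) than in CD34-negative (orange) groups, and Lum and Dpt lie below the limit on all 8 arrays.

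Many matrix probe sets passed between the 2 sorted populations and none between the 2 genotypes. Since the genes were chosen with earlier results of these data known, a count above the share of all probe sets is no independent test. Averaged over genotypes, 17 of the 30 probe sets passed between CD34-negative and CD34-positive cells at a limma adjusted p under 0.05, 15 lower and 2 higher in CD34-negative cells, against a background of 14% of all probe sets (7.39% lower and 6.63% higher). Taking for each gene the probe set with the highest mean, called its first probe set, 8 of 10 passed: Npnt, Egfl6, Tnc, Postn, Fn1, Thbs1 and Has2 were lower in CD34-negative cells and Nid1 was higher. The median log2 difference over the 30 probe sets was -1.32, beside -0.14 over all probe sets. In WT alone, 10 of 30 passed, all lower, where 4.61% of all probe sets passed (2.59% lower and 2.02% higher). In Runx1 iTG alone, 13 of 30 passed, 11 lower and 2 higher, where 6.98% of all passed (3.9% lower and 3.08% higher). The lower ones include a Tnc probe set with both group means below background. Likewise, the average count includes a Vcan probe set that lay below background on all 8 arrays. With 1 array left out, which leaves 1 array in a group, none of these counts rose and most fits gave fewer calls. The share of all probe sets called was not set beside them, so a lower count does not describe the matrix genes alone. With 1 probe set per gene the average comparison called 8 of the 10 genes, and averaging the probe sets of a gene called 7 of the 10. In bulk samples, fewer cells of a type and less RNA per cell cannot be told apart.

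Between genotypes no member probe set passed. In CD34-positive cells 0 of 30 passed with limma, beside 0.00444% of all probe sets, and 5 of 30 had an unadjusted p under 0.05, beside 5.67% of all. These 5 include a Vcan probe set that lay below background on every array. They also include a Has2 and a Tnc probe set with transgenic means of 21.1 and 24.2, below background. In CD34-negative cells 0 of 30 passed, beside 0.00888% of all, and 3 of 30 had an unadjusted p under 0.05, beside 6.29% of all. Averaged over both populations, 0 of 30 passed, beside 0.0377% of all, and 4 of 30 had an unadjusted p under 0.05, beside 7.46% of all. The same Vcan and Has2 probe sets are among these 4. Over all probe sets the standard error of a 2-group difference had a median of 0.60 on the log2 scale, and that of the first probe sets ranged from 0.30 for Cd44 to 1.63 for Has2.

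**Figure D2:**
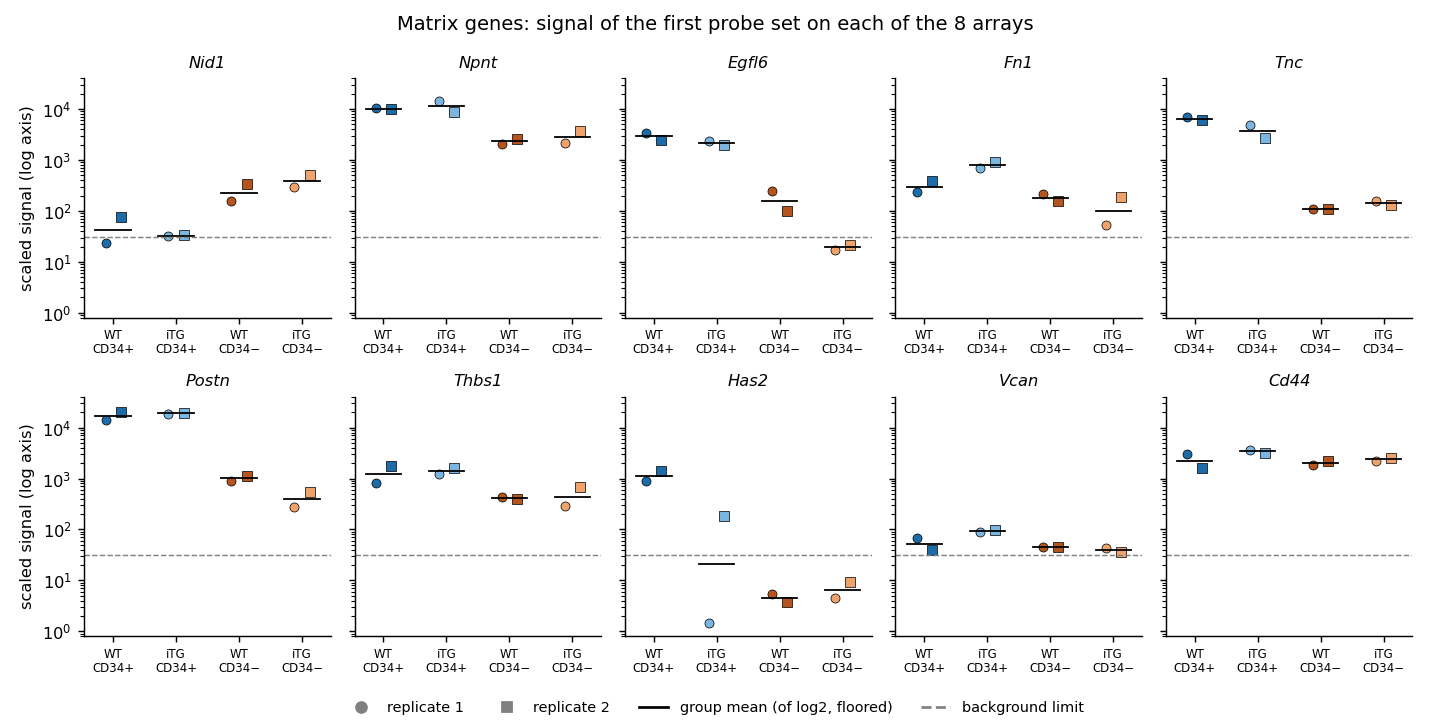
Scaled signal of each gene's first probe set on the 8 arrays (log axis), by group; circles are replicate 1, squares replicate 2, black lines the group mean on the log2 scale and the dashed line the background limit of 31.1. Egfl6, Tnc and Postn drop by more than 10-fold from CD34-positive to CD34-negative groups, Nid1 lies higher in CD34-negative groups, and the transgenic CD34-positive arrays of Has2 lie far apart at 1.44 and 184.1.

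The promoter windows of Tnc and Postn are shown because both genes differed by more than 10-fold between populations in each genotype. Each runs from 250 bases before to 50 bases after the gene start, 5′ to 3′ on the gene's strand, from RefSeq (GRCm38.p6), with the TATA motif TATAAA in capitals. Both genes have 2 windows, and the one with more matches to the motifs named here was taken. The Tnc window is chr4:64046966-64047265 on the minus strand and the Postn window chr3:54360857-54361156 on the plus strand.
Tnc: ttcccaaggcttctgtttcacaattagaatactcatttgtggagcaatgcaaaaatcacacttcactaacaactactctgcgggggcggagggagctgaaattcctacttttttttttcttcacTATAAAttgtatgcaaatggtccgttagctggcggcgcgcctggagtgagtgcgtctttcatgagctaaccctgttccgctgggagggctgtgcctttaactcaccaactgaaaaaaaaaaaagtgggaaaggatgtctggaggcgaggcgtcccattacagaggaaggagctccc
Postn: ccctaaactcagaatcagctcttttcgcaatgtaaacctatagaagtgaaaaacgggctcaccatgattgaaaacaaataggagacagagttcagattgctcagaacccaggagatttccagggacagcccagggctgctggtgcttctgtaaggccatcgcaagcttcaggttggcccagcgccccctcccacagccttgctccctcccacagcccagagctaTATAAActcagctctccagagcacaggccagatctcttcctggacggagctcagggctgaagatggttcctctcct
TATAAA began 26 bases before the start of Postn and 126 bases before that of Tnc. GC content was 53% for Postn and 47.3% for Tnc. Windows of 6 members, 9 in all, were searched on both strands, while Fn1, Thbs1 and Has2 had none. TATAAA was in 3 of the 9 and in 13.6% of all 32817 windows. The RUNX core TGTGGT, the AP-1 site TGANTCA and the TCF/LEF site CTTTGA were in 0 of the 9, and in 16.8%, 7.81% and 16% of all windows. None of these motifs contains another. A match of letters is a description of the window only.

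Among the basement membrane genes, Npnt and Egfl6 were lower and Nid1 was higher in CD34-negative cells. Npnt encodes nephronectin, which bulge cells deposit and to which the arrector pili muscle of the follicle anchors. Its first probe set read 10470 and 9848 in WT CD34-positive samples and 14540 and 8745 in transgenic ones. In CD34-negative samples it read 2080 and 2602 in WT and 2198 and 3733 in Runx1 iTG. All 4 CD34-positive arrays were above all 4 CD34-negative arrays, as was so for 19.4% of all probe sets in 1 direction or the other, and the genotypes overlapped in both populations. The average difference was -2.05 (SE 0.22, 4.14-fold lower, limma adjusted p = 0.000328). All 5 Npnt probe sets passed in that comparison, with differences from -2.32 to -1.69, and in each genotype alone. The call in WT alone (-2.13, adjusted p = 0.00525) was lost without any 1 of the 4 WT arrays (adjusted p from 0.0513 to 0.0757), and that in Runx1 iTG alone (-1.98, adjusted p = 0.00562) was lost without replicate 1 of the transgenic CD34-negative cells (adjusted p = 0.0677). For the first probe set, the difference between genotypes was 0.15 in CD34-positive cells (95% interval -0.55 to 0.86) and 0.30 in CD34-negative cells (-0.40 to 1.00). The other 4 differed by -0.34 to 0.35 and by 0.32 to 0.59. In each population some of them had genotypes that did not overlap, as had 33.3% and 34.7% of all probe sets. The value of 0.59 did not pass (limma unadjusted p = 0.0404, adjusted p = 0.769).

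Egfl6 encodes a matrix protein with EGF-like repeats and an integrin-binding site. Its single probe set read 3387 and 2486 in WT CD34-positive samples and 2344 and 1998 in transgenic CD34-positive samples. In WT CD34-negative samples it read 242.9 and 99.7, and in transgenic CD34-negative samples 16.9 and 21.8. The arrays of the 4 groups formed separate ranges, with the transgenic CD34-negative samples alone below the background limit. Of all probe sets, 33.3% separated the genotypes in CD34-positive and 34.7% in CD34-negative cells, and 19.4% separated the populations. The difference between populations was -4.22 in WT (SE 0.43, 18.6-fold, adjusted p = 0.000829), and in Runx1 iTG the level was at least 69.5-fold lower in CD34-negative cells (adjusted p = 7.54e-05). An "at least" fold sets the brighter group's mean against background where no array of the dimmer group rises above it. Both calls held in all 18 alternatives tried. Within CD34-negative cells, Egfl6 was at least 5-fold lower in Runx1 iTG than in WT on group means of 155.6 and 19.2 (log2 difference -3.02, 95% interval -3.99 to -2.05, unadjusted p = 4.5e-05), and this did not pass (adjusted p = 0.109). It passed in 1 of 18 alternatives, the one that left out dim probe sets (adjusted p = 0.0426). In CD34-positive cells the difference between genotypes was -0.42 (95% interval -1.40 to 0.55, adjusted p = 0.96).

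Nid1 encodes nidogen-1, which links laminin to collagen IV. The first Nid1 probe set read 23.1 and 76.7 in WT and 31.8 and 33.4 in transgenic CD34-positive samples, with 1 of these 4 arrays below the background limit. It read 155.3 and 333.7 in WT and 299.8 and 509 in transgenic CD34-negative samples. All CD34-negative arrays were above all CD34-positive arrays, a separation seen in 1 direction or the other for 19.4% of all probe sets. Nid1 was 8.05-fold higher in CD34-negative cells on average (log2 difference 3.01, SE 0.49, adjusted p = 0.00327), and a second probe set passed as well (2.75, adjusted p = 0.00443). The average call was lost with the mean of its probe sets (1.69, adjusted p = 0.0663) and on day 20 arrays alone (2.83, adjusted p = 0.0877). The third lay below background on all 8 arrays. In WT alone the difference was 2.43 (adjusted p = 0.0882), and in Runx1 iTG alone 3.58 (adjusted p = 0.0147). The latter call was lost without any 1 of the 4 transgenic arrays (adjusted p from 0.076 to 0.11), and the difference between the 2 values is the interaction of 1.15 (95% interval -1.06 to 3.36, adjusted p = 1). Between genotypes the values were -0.37 in CD34-positive and 0.78 in CD34-negative cells, and the arrays overlapped in both.

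Of the adhesive glycoproteins, Tnc and Postn fell in CD34-negative cells by more than 10-fold in each genotype, and Fn1 and Thbs1 fell by about 3-fold to 4-fold on average. Tnc encodes tenascin-C, a large six-armed protein that lessens cell adhesion to fibronectin. Its first probe set read 6948 and 5980 in WT and 4904 and 2724 in transgenic CD34-positive samples, against 110.6 and 111 in WT and 159.5 and 129.4 in transgenic CD34-negative samples. The populations were far apart, and within each population the WT and transgenic arrays did not overlap, as was so for 33.3% of all probe sets in CD34-positive and 34.7% in CD34-negative cells. The difference between populations was -5.86 in WT (SE 0.32, 58.2-fold, adjusted p = 5.2e-05) and -4.67 in Runx1 iTG (SE 0.32, 25.4-fold, adjusted p = 9.47e-05), and both calls held in all 18 alternatives. A second probe set read 102.5 and 154.1 in WT and 15.0 and 39.2 in transgenic CD34-positive samples and at most 2.16 in CD34-negative samples. It passed in WT, at least 4.04-fold lower (adjusted p = 0.00541). In Runx1 iTG it also passed (adjusted p = 0.0463), but both group means, 24.2 and 2.42, lay below background. That transgenic call therefore has no measured size. Between genotypes in CD34-positive cells, the first probe set differed by -0.82 (95% interval -1.52 to -0.12, unadjusted p = 0.0269, adjusted p = 0.819). The second did not pass either (unadjusted p = 0.0196, adjusted p = 0.804), and no fold is given for it since its transgenic mean of 24.2 lies below background. In CD34-negative cells the first differed by 0.37 (-0.33 to 1.08).

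Postn encodes periostin, a secreted protein that binds integrins and aids collagen assembly. It read 14010 and 19980 in WT and 18590 and 19340 in transgenic CD34-positive samples. It read 901.2 and 1145 in WT and 279.7 and 544.3 in transgenic CD34-negative samples. The genotypes overlapped in CD34-positive cells, and in CD34-negative cells both transgenic arrays lay under both WT arrays. Genotypes did not overlap in CD34-negative cells for 34.7% of all probe sets, in 1 direction or the other. Postn was 16.5-fold lower in CD34-negative than in CD34-positive cells in WT (log2 difference -4.04, SE 0.32, adjusted p = 0.000256). It was 48.6-fold lower in Runx1 iTG (-5.60, SE 0.32, adjusted p = 5.73e-05), and both calls held in all 18 alternatives. The difference between genotypes was 0.18 in CD34-positive cells (95% interval -0.54 to 0.90). It was -1.38 in CD34-negative cells (2.6-fold, 95% interval -2.10 to -0.66, unadjusted p = 0.00171), which did not pass (adjusted p = 0.413).

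Fn1 encodes fibronectin, the ligand of α5β1 integrin. The first Fn1 probe set read 230.5 and 394 in WT and 690.1 and 932.5 in transgenic CD34-positive samples, and 212.6 and 153.7 in WT and 53.3 and 185.5 in transgenic CD34-negative samples. The highest levels were those of the transgenic CD34-positive samples, above both WT arrays of that population, and the genotypes overlapped in CD34-negative cells. Genotypes did not overlap in CD34-positive cells for 33.3% of all probe sets, in 1 direction or the other. On average Fn1 was 3.67-fold lower in CD34-negative cells (SE 0.41 on the log2 scale, adjusted p = 0.0131). This call was lost without WT CD34-positive replicate 2 (adjusted p = 0.08), WT CD34-negative replicate 2 (0.0691) or transgenic CD34-positive replicate 2 (0.0676), and with the mean of both Fn1 probe sets (log2 difference -0.50, adjusted p = 0.66). The second probe set was above background on both arrays of no group. By genotype, the population difference was -0.74 in WT (adjusted p = 0.564) and -3.01 in Runx1 iTG (adjusted p = 0.0134). The transgenic value had an adjusted p of 0.065 or 0.117 without CD34-positive replicate 1 or 2 and of 0.0876 without CD34-negative replicate 1. It passed in 11 of 18 alternatives and was smallest with the mean of both probe sets (-1.21, adjusted p = 0.486). Between genotypes, Fn1 differed by 1.41 in CD34-positive cells (2.66-fold, 95% interval 0.13 to 2.70, unadjusted p = 0.0341, adjusted p = 0.842) and by -0.86 in CD34-negative cells (-2.14 to 0.42).

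Thbs1 encodes thrombospondin-1, which binds CD36 and CD47 and can activate latent TGF-β. The first Thbs1 probe set read 810.1 and 1780 in WT and 1250 and 1606 in transgenic CD34-positive samples, and 440.1 and 403.2 in WT and 288.8 and 674.2 in transgenic CD34-negative samples. Every CD34-positive array was above every CD34-negative array, and 19.4% of all probe sets separated the populations in 1 direction or the other. The genotypes overlapped in both populations. The average difference was -1.60 (SE 0.32, 3.03-fold, adjusted p = 0.00921), and the second probe set fell by 1.46 (adjusted p = 0.0208). The first call was lost without WT CD34-positive replicate 2 (adjusted p = 0.0532), WT CD34-negative replicate 2 (0.0521) or transgenic CD34-positive replicate 2 (0.0509). In WT the difference was -1.51 (adjusted p = 0.102), and in Runx1 iTG it was -1.68 (adjusted p = 0.0571). The second probe set passed in Runx1 iTG (-1.88, adjusted p = 0.0498). Between genotypes the values were 0.24 in CD34-positive and 0.07 in CD34-negative cells.

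Among the hyaluronan genes, Has2 was measured mainly in WT CD34-positive cells, Vcan lay near background and Cd44 was above background in all groups. Has2 encodes a hyaluronan synthase. Its first probe set read 885.3 and 1391 in WT CD34-positive samples and 1.44 and 184.1 in transgenic CD34-positive samples. All 4 CD34-negative arrays lay between 3.72 and 9.12, below background. Both WT arrays were above both transgenic arrays in CD34-positive cells, where 33.3% of all probe sets had genotypes that did not overlap. The transgenic pair had 1 array on each side of the background limit. In WT, Has2 was at least 35.6-fold lower in CD34-negative than in CD34-positive cells (adjusted p = 0.0244). This call was lost without any 1 of the 4 WT arrays or the 2 transgenic CD34-negative arrays (adjusted p from 0.0507 to 0.206). The average was at least 4.91-fold lower (adjusted p = 0.0204), with 3 of the 4 CD34-positive arrays above background, and that call was lost in the same 6 cases (adjusted p from 0.0544 to 0.102). In Runx1 iTG both group means of this probe set, 21.1 and 6.34, lay below background, so its difference has no measured size or direction (adjusted p = 0.626). Without CD34-positive replicate 1, which leaves the array at 184.1, the adjusted p was 0.0365, and without replicate 2 it was 0.571. Between genotypes in CD34-positive cells it did not pass (unadjusted p = 0.00575, adjusted p = 0.759). Its fitted log2 difference of -5.72 depends on the floor, since 1 transgenic array and the transgenic mean of 21.1 lie below background, and it is no measured fold. The second Has2 probe set read 108 and 348.2 in WT and 30.6 and 62.7 in transgenic CD34-positive samples, again with both WT arrays higher. The average between populations passed for it too (at least 2.96-fold, adjusted p = 0.0121), but WT alone did not (adjusted p = 0.054). Nor did it pass in Runx1 iTG alone, where means of 43.8 and 4.81 gave at least 1.41-fold lower in CD34-negative cells (adjusted p = 0.165). Only 1 of those transgenic CD34-positive arrays was above background. Its genotype difference in CD34-positive cells had an unadjusted p of 0.106 (adjusted p = 0.919).

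Vcan encodes versican, a large proteoglycan that binds hyaluronan. Only 1 of its 8 probe sets was above background on both arrays of any group, and 5 were below it on all arrays. The first read 68.0 and 40.2 in WT and 89.8 and 95.5 in transgenic CD34-positive samples, and 44.7 and 44.7 in WT and 42.8 and 35.8 in transgenic CD34-negative samples. These values lie within 4-fold of the background limit, and the average population difference was -0.73 (95% interval -1.78 to 0.31, adjusted p = 0.361). Another Vcan probe set passed in the average comparison (adjusted p = 0.0408) while below background on all 8 arrays, so no fold is given for it.

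Cd44 encodes the main cell surface receptor for hyaluronan. Its first probe set read 3009 and 1629 in WT and 3643 and 3192 in transgenic CD34-positive samples, and 1806 and 2200 in WT and 2226 and 2572 in transgenic CD34-negative samples. The populations overlapped, and for this probe set both transgenic arrays were above both WT arrays in each population. Such separation of the genotypes, in 1 direction or the other, held for 33.3% of all probe sets in CD34-positive and 34.7% in CD34-negative cells. In the other 3 Cd44 probe sets the genotypes overlapped in both populations, with differences of -0.17 to 0.59 in CD34-positive and of -0.49 to 0.04 in CD34-negative cells. The average population difference was -0.33 (95% interval -0.80 to 0.14, adjusted p = 0.357), and none of the 4 Cd44 probe sets passed. Between genotypes the difference was 0.62 in CD34-positive cells (95% interval -0.04 to 1.28, adjusted p = 0.896) and 0.26 in CD34-negative cells (-0.40 to 0.92, adjusted p = 0.965).

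**Figure D3:**
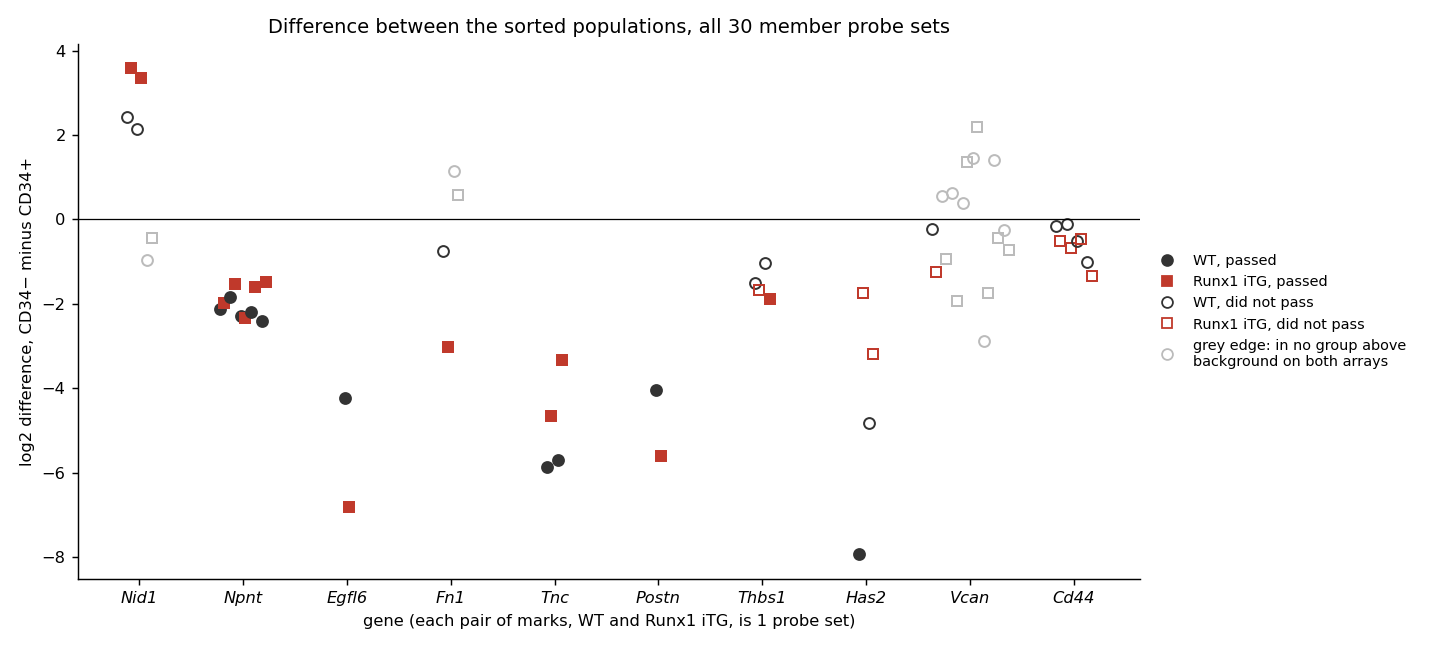
Log2 difference, CD34-negative minus CD34-positive, for all 30 probe sets, with WT as circles and Runx1 iTG as squares; filled marks passed at an adjusted p under 0.05 and grey edges mark probe sets that no group measured above background on both arrays. The Nid1 marks lie above 0 except for its dim probe set, all 5 Npnt pairs lie between -2.41 and -1.48, and Has2 in WT lies lowest at -7.94, a fitted value that depends on the floor.

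**Figure D4:**
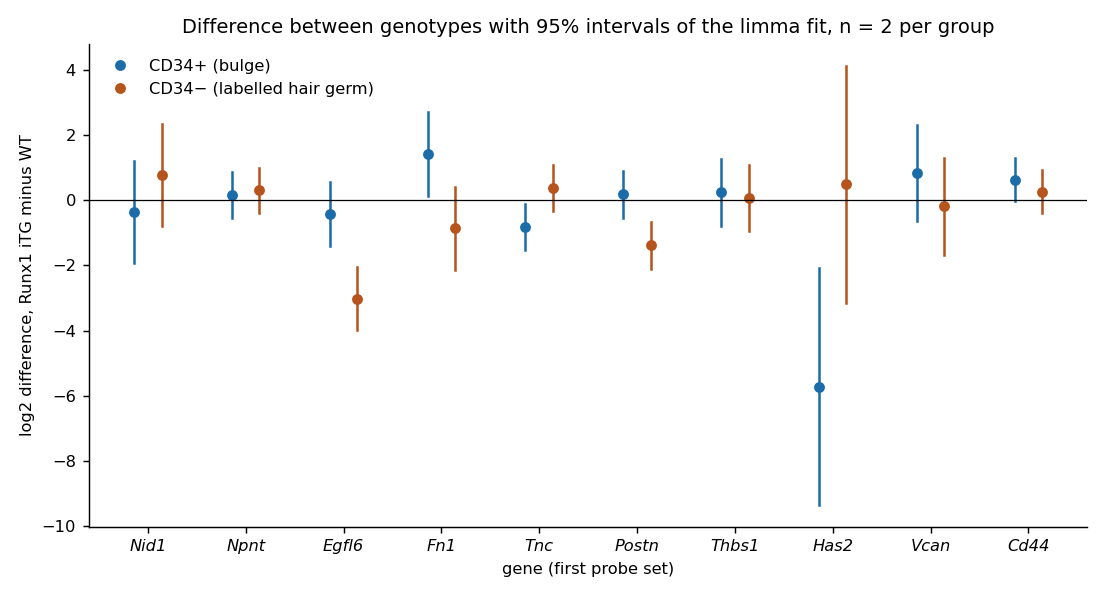
Log2 difference, Runx1 iTG minus WT, of each gene's first probe set with its 95% interval from the limma fit (2 arrays per group), in CD34-positive (blue) and CD34-negative (orange) cells. The intervals of Has2, Fn1 and Tnc in CD34-positive cells and of Egfl6 and Postn in CD34-negative cells leave out 0, and none of these passed after adjustment over all probe sets; the Has2 values depend on the floor.

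Whether the genotype difference itself differed between the populations was tested as an interaction. No member passed with limma (all adjusted p = 1), nor did any of the 45037 probe sets (0%). At an unadjusted p under 0.05 there were 6 of the 30 probe sets, beside 4.2% of all. They were led by Egfl6 (-2.60, unadjusted p = 0.00187, adjusted p = 1), Postn (-1.56, unadjusted p = 0.00677, adjusted p = 1) and Fn1 (-2.27, unadjusted p = 0.0191, adjusted p = 1), with the lower genotype difference in CD34-negative cells. The size for Egfl6 depends on its transgenic CD34-negative values of 16.9 and 21.8, which lie below background. For Tnc (1.19, unadjusted p = 0.0235, adjusted p = 1) the higher genotype difference was in CD34-negative cells. The same held for 1 of the Npnt probe sets (0.93, unadjusted p = 0.0252), not its first. Has2 was also among them (unadjusted p = 0.0227, adjusted p = 1), but it lay below background on all CD34-negative arrays, so its interaction has no measured size or direction.

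Receptors and other matrix genes were read from lists chosen with earlier results of these data known, each gene by its brightest single-gene probe set. The shares and median over all probe sets beside them include dim probe sets and several probe sets of 1 gene, so the 2 sets are unlike. Of 14 receptors of the members, 6 were lower and 0 higher in CD34-negative cells in the average comparison, where 7.39% of all probe sets passed lower and 6.63% higher. Their median was -0.75, beside -0.14 over all probe sets, and these background values hold for each list below. Itgb6, the β chain of an integrin that binds fibronectin and tenascin-C, was 27.5-fold lower (adjusted p = 0.000112): it read 2687 and 1523 in WT and 1307 and 1443 in transgenic CD34-positive samples, and 28.3 to 127.9 in CD34-negative samples. Itgb5 was 3.8-fold lower (adjusted p = 0.000422), and Cd47, a thrombospondin receptor, 1.76-fold lower (adjusted p = 0.00406). Itga8, the α chain of the nephronectin receptor, was below background on all 8 arrays, at most 17.1. Cd36, another thrombospondin receptor, read 482 and 698.3 in WT CD34-negative samples and 8.04 to 68.2 on the other 6 arrays. It passed in WT between populations (4.23, adjusted p = 0.0416), and its genotype difference did not pass in CD34-negative cells (unadjusted p = 0.000928, adjusted p = 0.334) or on average (adjusted p = 0.504).

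Of 15 measured relatives and partners in the matrix, 6 were lower and 0 higher in CD34-negative cells (7.39% and 6.63% of all probe sets), with a median of -0.89 (-0.14 over all). Fbln1, which encodes the basement membrane protein fibulin-1, was 7.74-fold lower (adjusted p = 1.98e-05). Sparc, a collagen-binding glycoprotein, was 13.6-fold lower (adjusted p = 0.000194), from 14780 to 18610 in CD34-positive samples to 594.4 to 2201 in CD34-negative samples. Tgfbi, a relative of periostin, was 3.78-fold lower (adjusted p = 0.00045). It read 5563 and 6207 in WT and 1154 and 2435 in transgenic CD34-negative samples, and this difference of -1.81 did not pass (unadjusted p = 0.000191, adjusted p = 0.221), nor did the average over populations (-0.97, adjusted p = 0.316). Of 10 measured genes of the hyaluronan system, 1 was lower, the hyaluronan-degrading Cemip2 (2.64-fold, adjusted p = 0.0053). One was higher, the hyaluronan receptor and cell division gene Hmmr (3.85-fold, adjusted p = 0.0329), and the median was -0.69. A share of 1 in 10 each way is near the 7.39% lower and 6.63% higher of all probe sets. No gene of the 3 lists passed between genotypes, in either population or on average.

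Markers of other cells moved with some of these differences. Of 10 fibroblast markers, 3 were lower in CD34-negative cells (Col1a1, Col1a2 and Col3a1), where 7.39% of all probe sets passed lower, and their summed signal was 6033 to 10520 in CD34-positive and 1001 to 1893 in CD34-negative samples. Col1a1 read 3217 to 7741 in CD34-positive and 95.7 to 444.7 in CD34-negative samples. Lum and Dpt, defining fibroblast genes, were below background on all 8 arrays, and Pdgfra and Dcn did not pass. Averaged over genotypes, 7 of the 10 were lower and 3 higher in CD34-negative cells. Pdgfra was among the higher, with WT and transgenic group means of 46.5 and 74.8. In CD34-positive cells its means of 15.5 and 16.6 lay below background. Most of the summed fibroblast signal of CD34-positive cells was Col1a1. That sum was 6033 and 7744 in WT and 10440 and 10520 in Runx1 iTG, beside the Fn1 values above. Immediate early genes, which respond to cell dissociation, summed to 14230 and 16520 in WT and 25530 and 32970 in transgenic CD34-positive samples. They summed to 22510 and 22610 in WT and 43130 and 47320 in transgenic CD34-negative samples, and 5 of 10 passed as higher in CD34-negative cells (6.63% of all probe sets) while none passed between genotypes. The part of either list in the matrix differences was not tested. Of 5 vessel and muscle wall markers 1 was lower in CD34-negative cells, the smooth muscle gene Myh11 (5.13-fold, adjusted p = 0.0232), and of 6 melanocyte markers 1, Dct (adjusted p = 0.0493). Of the 6 immune and 5 endothelial markers none passed. Their part in the matrix differences was not tested. Endothelial markers summed to at most 189.2, melanocyte markers to at most 526.3, vessel and muscle wall markers to at most 445.3, and immune markers to at most 910.7, on any array.

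The members with the widest range of group means were Has2, Egfl6 and Tnc, and for each the genes most like it over the 8 arrays are given as a description. The ranges of Has2 and Egfl6 include group means below background, so their width and rank depend on unmeasured levels. For Has2 these were Acvr2a (Pearson r = 0.987), Med13 (0.977) and B3gnt2 (0.97). For Egfl6 they were Micall1 (0.997), Id4 (0.996) and Jup (0.995). For Tnc they were Cnn3 (0.99), Git1 (0.989) and Ackr4 (0.989). The 8 arrays share only 4 groups, so genes with a population difference in the same direction reach a high r. Id4 had group means of 9040 and 7778 in WT and transgenic CD34-positive cells and 1943 and 774.1 in CD34-negative cells. Acvr2a had its highest mean in WT CD34-positive cells, 3188, against 1563 to 2037 in the other 3 groups.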

How the data were processed

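Total RNA of sorted cells was amplified and hybridised to 8 arrays, 2 per group, with groups and replicate numbers taken from the labels. The deposited values are the authors' linear intensity per probe set. The sources used here do not name the program that summarised and scaled them, and the number of arrays limits the precision. From these intensities, 64 control probe sets were removed, arrays were brought to the same 75th percentile, and log2 was taken with a floor of 2.42, the lowest of the 8 arrays' 5th percentiles, which replaced 3.48% of values. Background, 31.1, is the 95th percentile of 27 bacterial control probe sets. One mean per group was fitted with limma 3.58.1 (R 4.3.3) and a trend of the prior variance with intensity (4 residual and 9.77 total degrees of freedom), over 45037 probe sets, of which 34945 have 1 gene symbol. Every adjusted p is Benjamini-Hochberg over all of them, with a threshold of 0.05. The fit was tested on simulated data.

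Per the labels, replicates are biological. The sources used here do not say whether the populations of 1 replicate number share animals, so population comparisons may not rest on independent samples. Correlations of same-numbered deviations between groups ranged from -0.054 to 0.171, so the numbers were not used as pairs. All members are named, each first by its brightest probe set. Companion and marker genes are read from their brightest single-gene probe set alone. Companion lists name up to 3 genes by unadjusted p. The members and lists were chosen with earlier results of these data known. Alternatives covered scaling, floor, dim probe sets, trend, probe set choice, day 20 arrays, the groups compared, a replicate block and each array left out. Coordinates are given for promoter windows alone, since the sources used here do not name the build behind the array's annotation. The promoter of 1 member is not reported here.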

Additional observations from a re-analysis of the deposited data

How the results depend on the processing

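Egfl6, Tnc, Postn and Npnt kept their average difference between populations past the threshold in all 17 alternatives. Of 30 probe sets, the number that passed on average was 11 to 16 with 1 array left out (11 without replicate 2 of either WT population), 8 with 1 probe set per gene, 7 when a gene's probe sets were averaged, and 16 with the replicate block. In WT it was 6 to 10 with 1 array left out (6 without either WT CD34-positive array), 6 without the intensity trend, 5 with 1 probe set per gene, 5 with the mean of probe sets and 11 with the replicate block. In Runx1 iTG it was 6 to 11 with 1 array left out (6 without CD34-positive replicate 2 or CD34-negative replicate 1), 4 without the trend, 7 with 1 probe set per gene, 5 with the mean, 3 on day 20 arrays alone, 6 with only the groups compared and 13 with the replicate block. Fewer probe sets or arrays enter most of these; for the trend the cause was not tested. Between genotypes and for the interaction the count was 0 throughout, except 1 in CD34-negative cells without dim probe sets (Egfl6). On average, Nid1 lost its call with the mean of probe sets (1.69, adjusted p = 0.0663) and on day 20 arrays (2.83, 0.0877), and Fn1, Thbs1 and Has2 without the trend (0.0653, 0.0675 and 0.0818), and Thbs1 on day 20 arrays (0.0574). Cd44 gained one with the mean of its probe sets (-0.60, 0.0413). In WT alone, Npnt and Has2 lost their calls without the trend (0.0852 and 0.118). In Runx1 iTG alone, Nid1, Npnt and Fn1 lost theirs without the trend (0.0629, 0.0801 and 0.0827) and on day 20 arrays (0.284, 0.0567 and 0.0929). Of 18 alternatives in Runx1 iTG, Nid1 and Fn1 passed in 11 each and Npnt in 14, array removals included. The replicate block brought Thbs1 past the threshold in each genotype (adjusted p = 0.047 in WT and 0.024 in Runx1 iTG). Quantile normalization moved the median of all probe sets by 0.16 in the average comparison and changed no direction there.

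Several differences that had not passed changed sign. In CD34-positive cells between genotypes, with 1 array left out, Nid1 ranged from -1.24 to 0.49, Npnt from -0.22 to 0.52, Postn from -0.075 to 0.44 and Thbs1 from -0.33 to 0.81, and Vcan was -0.076 with the mean of its probe sets. In CD34-negative cells, with 1 array left out, Npnt ranged from -0.082 to 0.68, Fn1 from -1.76 to 0.037, Thbs1 from -0.54 to 0.68 and Has2 from -0.034 to 1.01. On day 20 arrays alone, Npnt was -0.082, Thbs1 -0.54 and Has2 -0.034. With the mean of probe sets, Thbs1 was -0.11, Has2 -0.015 and Cd44 -0.040. Between populations, Fn1 in WT was 0.21 with the mean of its probe sets, and Has2 in Runx1 iTG, with both means below background, had fitted values of 0.87 on day 20 arrays and -4.86 to 1.39 with 1 array left out, of no measured direction. Except where fewer samples entered, the cause was not tested. Signals near 31.1, as for Vcan, Nid1 in CD34-positive cells and Has2 outside WT CD34-positive cells, limit the differences that could be measured.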
